A study of Mus musculus with 6 samples.

Results

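Expression of 32 genes that turn amino acids and pyruvate into glucose and urea was followed in hepatocyte nuclei of 6 mouse livers. The genes were taken by symbol, and all 32 were found among the 32285 features of the single-nucleus libraries. By role they fall into 6 genes of gluconeogenesis, 16 of amino acid catabolism, 6 of the urea cycle and 4 transporters of amino acids or ornithine. The livers came from 3 mice that lack Plvap in hepatic stellate cells (the pericyte-like, vitamin A-storing cells of the liver sinusoid) and 3 littermate controls, with 1 library per mouse. All 6 mice were males of 18 weeks on chow that had been fasted overnight for 12 hours. Both groups carry the labels C57BL/6JBomTac for strain and Plvaptm1.1Salm-Tg(Lrat-cre)1Rshw for source, the genotype labels read Plvap knockout and Plvap Control, and the Cre status of the controls is not given. Cre is driven by Lrat, a stellate cell gene, so the hepatocytes described here were not the cells targeted.

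Between meals the liver makes glucose from lactate, glycerol and the carbon skeletons of amino acids, and it disposes of the amino groups as urea. Glucagon and glucocorticoids induce many of these enzymes in fasting and insulin represses them, partly through the transcription factors CREB and FOXO and the coactivator encoded by Ppargc1a. Along the liver lobule blood flows from the portal to the central side, and in rodents gluconeogenesis and urea synthesis are strongest in periportal hepatocytes, whereas glutamine synthesis lies around the central vein.

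After filtering, 25662 of 27297 barcodes were kept, and 5241 of them were hepatocyte nuclei by their markers, 781, 918 and 701 in knockouts 1, 2 and 3 and 1128, 722 and 991 in controls 1, 2 and 3. The deposited libraries held 23153182 to 27199466 UMIs (unique molecular identifiers, counted once per captured transcript), and hepatocyte nuclei had medians of 9185 to 11746 UMIs per library. In stellate nuclei Plvap stood at 233, 195 and 159 CPM (UMIs of the gene per 1000000 UMIs of the class) in knockouts, against 244, 233 and 246 CPM in controls. The sources used here do not name the deleted exons, so these 3′ counts do not check the genotype. Summed levels of the markers of other liver cell types in hepatocyte nuclei were low in every library, with endothelial markers at 58.0 to 128 CPM against 22739 CPM in endothelial nuclei. Pairs of libraries shared 1 to 10 barcodes. Libraries control 1 and knockout 2 stood apart: 719 of the 918 hepatocyte nuclei of knockout 2 and 877 of the 1128 of control 1 fell in a cluster led by Angptl8, Ces3b and Gpd1 that held at most 4 nuclei of any other library, although no member was used in clustering. Knockout 1 also stood apart, with 604 of its 781 hepatocyte nuclei in a cluster of which it supplied 91.1%.

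Promoters of 25 members are given by RefSeq (GRCm38.p6), as windows of 250 bases before to 50 after a start site, 33 windows in all. The cAMP response element is the binding site of CREB, and its core TGACG (searched on both strands) was present in 8 of these windows, from 7 members (Aass, Nags, Pck1, Ppargc1a, Slc37a4, Slc38a2 and Slc38a4), which is 24.24% of the windows against 20.79% of all 32817 promoters. The full palindrome TGACGTCA was in 0 member windows (1.79% of all promoters), as were the FOXO letters GTAAACA (3.65%), the C/EBP letters TTGCGCAA (0.183%) and the HNF4 letters CAAAGTCCA (0.475%). The glucocorticoid receptor letters TGTTCT were in 2 of the 33 windows (6.06%), from Bckdhb and Slc38a4, against 18.97% of all promoters. Windows of 3 members are shown because they belong to the textbook gluconeogenic gene, to the member whose genotype difference was called to vary with zone (a call that several alternatives lose) and to the member with the largest genotype difference. The strand printed is that of the gene, and capitals mark the core, which reads CGTCA where it lies on the opposite strand.
Pck1, chr2:173152823-173153122, plus strand: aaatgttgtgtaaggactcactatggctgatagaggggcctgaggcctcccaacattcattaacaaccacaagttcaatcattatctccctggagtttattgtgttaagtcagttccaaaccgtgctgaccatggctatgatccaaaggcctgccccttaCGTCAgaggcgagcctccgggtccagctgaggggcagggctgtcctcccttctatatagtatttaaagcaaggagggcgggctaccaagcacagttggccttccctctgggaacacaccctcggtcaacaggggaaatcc
Ppargc1a, chr5:51567676-51567975, minus strand: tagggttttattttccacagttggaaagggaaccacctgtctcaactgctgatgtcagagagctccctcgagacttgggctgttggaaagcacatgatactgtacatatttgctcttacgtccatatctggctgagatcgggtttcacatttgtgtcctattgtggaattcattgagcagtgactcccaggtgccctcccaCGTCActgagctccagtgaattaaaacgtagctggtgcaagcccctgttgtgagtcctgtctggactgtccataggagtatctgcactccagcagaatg
Aass, chr6:23132937-23133236, minus strand: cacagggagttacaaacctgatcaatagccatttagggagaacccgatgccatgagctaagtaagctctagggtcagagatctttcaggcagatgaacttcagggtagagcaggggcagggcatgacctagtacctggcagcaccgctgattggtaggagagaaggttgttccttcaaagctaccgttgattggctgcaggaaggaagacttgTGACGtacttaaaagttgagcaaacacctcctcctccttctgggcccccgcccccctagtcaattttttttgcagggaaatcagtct
The core began 90 bases before the start site in Pck1, 49 before it in Ppargc1a and 37 before it in Aass. A match of letters is a description of the window only.

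The comparison of knockout with control livers asks whether loss of Plvap from stellate cells changes these hepatocyte genes in fasting. No member passed the test: of 32 members tested, 0 were called at an adjusted p under 0.05, as were 0 of all 13784 genes tested (0%), by edgeR's quasi-likelihood test with Benjamini-Hochberg adjustment over all genes. At an unadjusted p under 0.05 there were 2 members and 474 genes (3.44%), and DESeq2 called 0 members and 13 genes. In knockouts the fold change was below control for 24 members and above it for 8, where 50.5% of all genes were below. The median log2 fold change (knockout over control) was -0.22 for the members and -0.0024 for all genes, with a median standard error of 0.492 for a member and 0.235 for a gene. That median ran from -0.55 without control 1 to 0.04 without knockout 2, so its sign rests on single libraries.

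**Figure D1:**
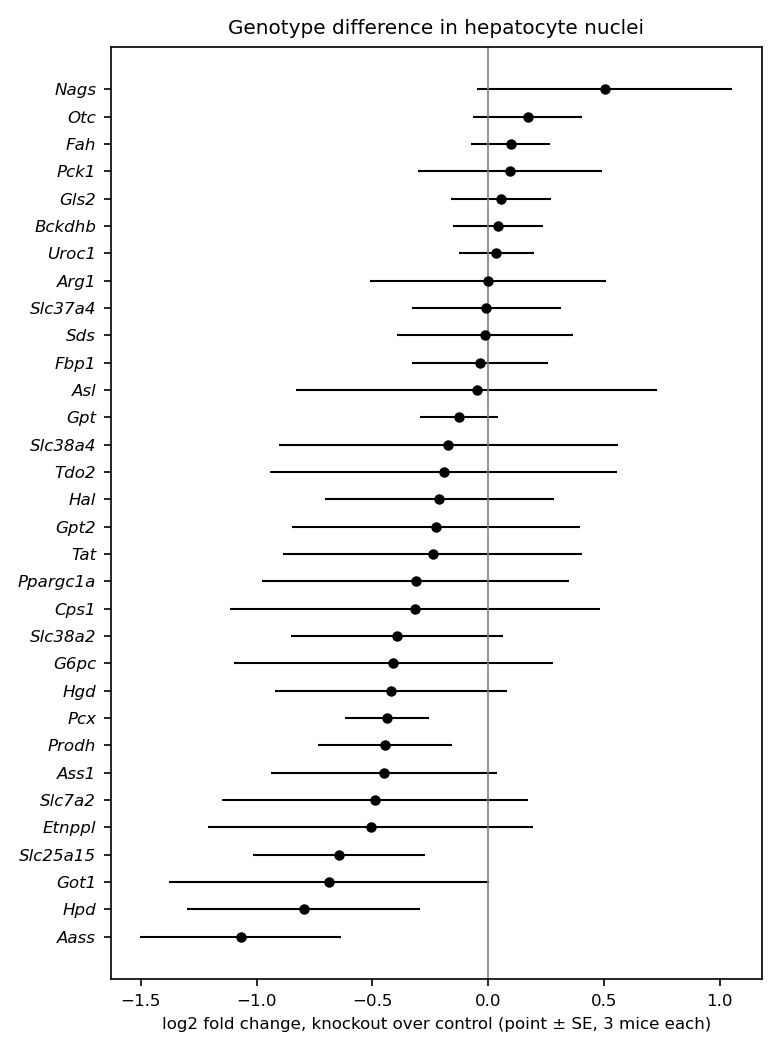
Log2 fold change of each of the 32 members in hepatocyte nuclei, knockout over control, with bars of 1 standard error (3 mice each). Aass and Pcx are the 2 members with an unadjusted p under 0.05, and 24 of the points lie below 0.

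Gluconeogenesis genes were spread within both groups. Pck1, which makes phosphoenolpyruvate from oxaloacetate and sets the pace of the pathway, had 2445, 1908 and 2604 CPM (of the TMM-scaled totals of tested genes, used from here on) in knockouts 1, 2 and 3, against 1009.9, 2614 and 2895 CPM in controls 1, 2 and 3. Control 1 was the lowest library and the groups overlapped (log2 fold change 0.09, SE 0.397, adjusted p 1). G6pc, the phosphatase subunit that frees glucose in the last step, had 989, 457 and 504 CPM in knockouts and 169.8, 1019.8 and 1402 CPM in controls. Its highest library, control 3, exceeded its lowest, control 1, by 8.25-fold. Slc37a4, which carries the phosphorylated sugar to that enzyme, had 142, 95.1 and 166 CPM in knockouts and 82.2, 143 and 180.3 CPM in controls, again lowest in control 1 and next in knockout 2.

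Pcx, pyruvate carboxylase, the entry step for lactate and alanine carbon, was the only member whose groups did not overlap. It had 401, 372 and 464 CPM in knockouts, against 624, 552 and 499 CPM in controls (mean 412 ± 46.9 in knockouts and 558 ± 63.0 in controls, SD, n = 3 each). Every knockout lay below every control, as in 3.95% of all genes tested. The log2 fold change was -0.44 (SE 0.179), its unadjusted p 0.0436 and its adjusted p 1 by edgeR, so the difference was not called. Without control 1 and knockout 2 it was -0.27 (SE 0.2, added after the data were seen). Pcx overlaps Lrfn4 on the opposite strand, and the sources used here do not say whether counting used strand. Fbp1, the bisphosphatase of the pathway, had 1135, 608 and 633 CPM in knockouts and 749.6, 713 and 972 CPM in controls, with the highest and the lowest library both knockouts. Ppargc1a, the fasting-induced coactivator of these enzymes, had 222, 147 and 836 CPM in knockouts and 274, 709.6 and 513 CPM in controls. Knockout 3 was the highest of the 6 libraries and knockouts 1 and 2 the lowest, so its SD on the log2 scale was larger among knockouts (1.31) than among controls (0.7).

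Among amino acid catabolism genes 12 of 16 had a negative fold change, 0 were called and the median was -0.22. Aass, the enzyme with which lysine degradation starts, had the largest fold change of the 32 members. It had 362, 760.5 and 1001 CPM in knockouts and 1559, 1992 and 905 CPM in controls. Knockouts 1 and 2 were lowest, but knockout 3 lay above control 3, so the groups overlapped. The log2 fold change was -1.07 (SE 0.433, unadjusted p 0.0418, adjusted p 1 by edgeR). It stayed between -1.4 and -0.75 when each library was left out. Nuclei of other types also held Aass, at a mean of 351 CPM in endothelial against 1098 CPM in hepatocyte nuclei (unscaled totals), while endothelial markers summed to 77.8, 76.02 and 113 CPM in hepatocyte nuclei of knockouts and 58.3, 128 and 58.0 CPM in those of controls.

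Tyrosine degradation runs through Tat, Hpd, Hgd and Fah in that order, and the first 3 varied with the library. Tat, tyrosine aminotransferase, a classic glucocorticoid-induced gene, had 1579, 671 and 2102 CPM in knockouts and 464, 2332 and 2342 CPM in controls. Knockout 2 and control 1 were its lowest libraries. Hpd, the dioxygenase of the next step, had 917, 601 and 1412 CPM in knockouts and 685, 2415 and 1993 CPM in controls (log2 fold change -0.80, SE 0.504, unadjusted p 0.157). Hgd, homogentisate dioxygenase, ranged from 387 CPM in knockout 2 to 1551 CPM in control 3, whereas Fah, the last enzyme of the route, ranged only from 129 to 189 CPM.

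Tdo2, which opens tryptophan breakdown, had 2519, 616 and 3629.9 CPM in knockouts and 726, 3198 and 3807 CPM in controls. Etnppl, a lyase that degrades phosphoethanolamine, had 329, 76.3 and 261 CPM in knockouts and 89.2, 327 and 531 CPM in controls. Got1, the cytosolic aspartate aminotransferase, had 272, 147 and 376 CPM in knockouts and 84.4, 512 and 684 CPM in controls (log2 fold change -0.69, SE 0.692). In all 3 genes knockout 2 and control 1 were the lowest libraries by a wide margin and the groups overlapped. The alanine aminotransferases differed in spread: mitochondrial Gpt2 ranged from 310.1 to 1516 CPM, again lowest in control 1 and knockout 2, while cytosolic Gpt had 64.5, 66.6 and 58.8 CPM in knockouts and 77.2, 75.1 and 55.0 CPM in controls.

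The histidine-degrading pair Hal and Uroc1 also differed from each other. Hal, histidine ammonia-lyase, had 523, 271 and 1028 CPM in knockouts and 439, 735 and 934 CPM in controls, a 3.80-fold range. Uroc1, urocanate hydratase, which takes the product of Hal, had 412, 378 and 357 CPM in knockouts and 397, 388 and 335 CPM in controls, a 1.23-fold range and the smallest spread of any member. Sds, the serine dehydratase that yields pyruvate, had 602, 615 and 1263 CPM in knockouts and 595, 1171 and 738 CPM in controls, with knockout 3 and control 2 high. Gls2, the liver glutaminase, had 318, 287 and 326 CPM in knockouts and 377, 293 and 224 CPM in controls. Its knockouts lay within the range of the controls.

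Prodh, proline dehydrogenase, had 36.6, 38.1 and 43.9 CPM in knockouts and 53.8, 75.3 and 32.4 CPM in controls (log2 fold change -0.44, SE 0.29, unadjusted p 0.168). The 3 knockouts were close together and lay between the lowest and the middle control. Bckdhb, a subunit of the branched-chain keto acid dehydrogenase, had 749, 689 and 564 CPM in knockouts and 682, 568 and 693 CPM in controls, with overlapping groups and a 1.33-fold range.

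Urea cycle genes had 3 negative and 3 positive fold changes, a median of -0.02 and 0 calls. Cps1, which fixes ammonia as carbamoyl phosphate in mitochondria, had 6796, 2245 and 10050.0 CPM in knockouts and 1528, 9031 and 13204 CPM in controls. This was the largest spread of any member, 8.64-fold from control 1 to control 3 (log2 fold change -0.32, SE 0.798). Asl, which splits argininosuccinate, had 770.5, 166 and 1167 CPM in knockouts and 199, 898 and 1079.6 CPM in controls, a 7.03-fold range. Arg1, the arginase that releases urea, had 1321, 633 and 1395 CPM in knockouts and 439, 1228 and 1682 CPM in controls. Knockout 2 and control 1 were lowest for all 3 of these genes.

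Ass1, which joins citrulline and aspartate, followed another order, with 622, 484 and 1672 CPM in knockouts and 878, 1598 and 1315 CPM in controls. Knockouts 1 and 2 were its lowest libraries and knockout 3 its highest. Otc, which makes citrulline, had 361, 219 and 237 CPM in knockouts and 243, 203 and 279 CPM in controls, a 1.78-fold range. Nags, whose product activates Cps1, was sparse, with 13.1, 33.8 and 16.2 CPM in knockouts and 26.0, 12.3 and 6.27 CPM in controls, from 68 to 362 UMIs per library. It was highest in knockout 2 and next in control 1, the libraries in which Cps1 was low.

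All 4 transporters had a negative fold change (median -0.44), 0 were called, and in all 4 control 1 and knockout 2 were the lowest libraries. Slc7a2, a transporter of arginine, lysine and ornithine, had 2892, 1357 and 5035 CPM in knockouts and 1285, 5975 and 5766 CPM in controls. Slc38a4, a carrier of neutral amino acids such as alanine, had 1826, 449 and 1364 CPM in knockouts and 309, 1647 and 2145 CPM in controls. Slc25a15, which takes ornithine into mitochondria for the urea cycle, had 188, 117 and 142 CPM in knockouts and 114, 292 and 291 CPM in controls (log2 fold change -0.64, SE 0.372, unadjusted p 0.126). Its knockouts all lay between control 1 and the other controls. Slc38a2, a neutral amino acid transporter found in many cell types, ranged from 169.7 to 673 CPM.

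**Figure D2:**
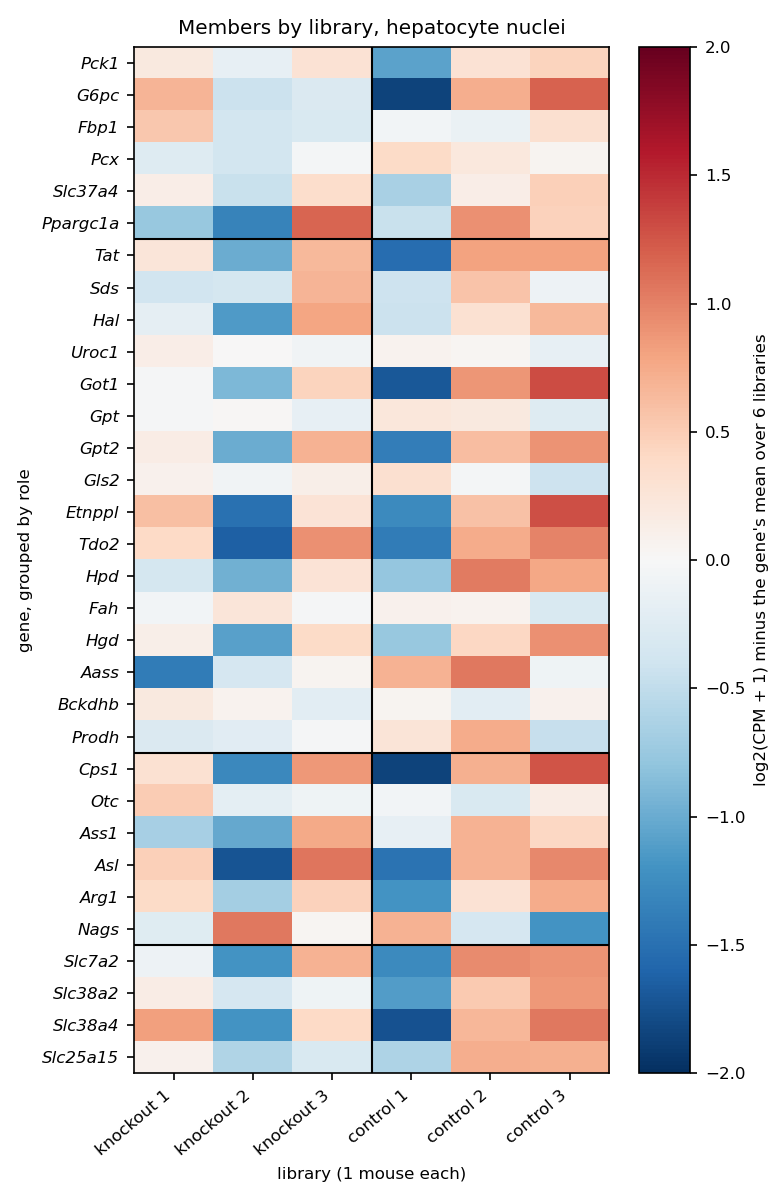
Each cell is the log2(CPM + 1) of a member in hepatocyte nuclei of 1 library minus its mean over the 6 libraries, with knockouts left of controls and genes grouped by role (gluconeogenesis, amino acid catabolism, urea cycle and transport from the top). The columns of knockout 2 and control 1 are blue for most genes, while Uroc1, Gpt, Fah and Bckdhb are pale in every library.

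Spread between mice was larger for these genes than for most genes of hepatocyte nuclei. Over the 6 libraries the SD of log2(CPM + 1) had a median of 0.751 for the members and 0.256 for all 13784 genes tested. Among genes with a mean of at least 50 CPM it was 0.751 for 30 members and 0.226 for 3822 genes, and an SD above 0.5 was found in 66.7% of those members and 12.8% of those genes. The 6 largest were Cps1 (1.27), Asl (1.26), Tdo2 (1.20), Slc38a4 (1.17), Got1 (1.13) and Etnppl (1.12).

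Much of that spread followed the same pair of libraries, a pattern described after the values were seen. Control 1 and knockout 2 were the 2 lowest libraries in 18 of 32 members, and in 18 of the 30 with at least 50 CPM (60%), against 24.6% of all genes of that level. Members took 3.12%, 1.69% and 4.08% of all hepatocyte UMIs in knockouts 1, 2 and 3, against 1.64%, 4.27% and 4.42% in controls 1, 2 and 3. One of these libraries is a knockout and the other a control.

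Genes that respond to feeding averaged highest in those same libraries. The mean deviation from the 6-library average was -0.17, 0.86 and -0.35 (log2) in knockouts 1, 2 and 3 and 0.67, -0.33 and -0.69 in controls 1, 2 and 3 for 11 tested genes induced by feeding. For the 32 members it was 0.05, -0.63 and 0.3 in knockouts and -0.64, 0.46 and 0.46 in controls. For 22 regulators and markers of fasting it was -0.07, -0.18 and 0.12 in knockouts and -0.47, 0.33 and 0.28 in controls. The low libraries for the members were thus the high ones for the feeding-induced list. That list was chosen with earlier results of these data known. Its genes Angptl8 and Pklr are among the leading genes of the cluster that holds most hepatocyte nuclei of this pair. The list is therefore not independent of the pattern. Single genes did not all follow: control 1 and knockout 2 were the 2 highest libraries in 6 of the 11 feeding-induced genes and the 2 lowest in 0. Of the 22 fasting regulators they were the 2 lowest in 9 and the 2 highest in 6. Over all genes tested they were the 2 lowest in 17.7%, and their share as the 2 highest was not counted.

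Genes of these lists that followed the pair, picked after their values were seen, show the size it could reach. Angptl8, a hormone gene induced by insulin, had 10.4, 211 and 14.3 CPM in knockouts and 106, 8.51 and 3.23 CPM in controls. Igfbp1, a gene that insulin represses, had 424, 93.7 and 663 CPM in knockouts and 13.4, 667 and 1130.3 CPM in controls. Fkbp5, a glucocorticoid-induced gene, had 626, 263 and 1145 CPM in knockouts and 178, 1235 and 1056 CPM in controls. Knockout 2 and control 1 were highest for Angptl8 and lowest for Igfbp1 and Fkbp5. Cebpa, a liver transcription factor of the fasting list, ran the other way, with 26.4, 70.5 and 37.1 CPM in knockouts and 66.7, 30.2 and 15.4 CPM in controls. All mice carry the same fasting label, and the part of feeding state in the spread of the members was not tested.

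**Figure D3:**
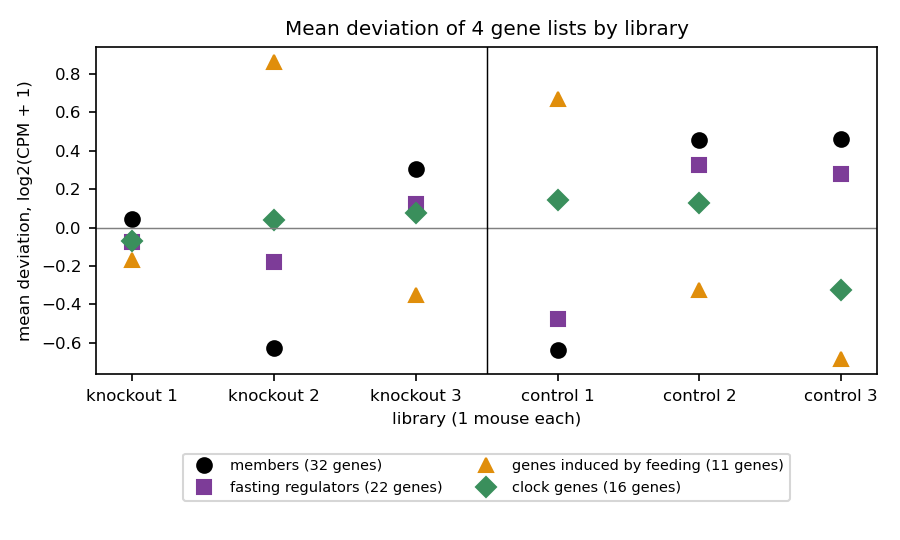
Mean deviation (log2(CPM + 1) minus each gene's average over 6 libraries) of the members and of 3 other gene lists, by library, with knockouts left of controls. Members sit at -0.63 in knockout 2 and -0.64 in control 1, where the feeding-induced genes sit at 0.86 and 0.67.

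Other genes of the same pathways gave no call between knockouts and controls. Of 20 tested genes of gluconeogenesis and triose metabolism 12 were lower and 8 higher in knockouts, 0 were called and 0 had an unadjusted p under 0.05. The smallest p were those of the citrate carrier Slc25a1 (19.9, 27.5 and 24.0 CPM in knockouts and 21.4, 18.8 and 15.02 CPM in controls, log2 fold change 0.37, SE 0.195) and of the malate dehydrogenase Mdh2 (-0.28, SE 0.164). Of 54 other genes of amino acid catabolism 32 were lower and 22 higher, with 0 called. Oat, ornithine aminotransferase, had 56.6, 71.6 and 59.4 CPM in knockouts and 80.4, 109 and 85.0 CPM in controls, and Cth, the cystathionine lyase, had 418, 323 and 575 CPM in knockouts and 695, 605 and 653 CPM in controls. In both the knockouts lay below the controls, as in 3.95% of all genes tested. The log2 fold changes were -0.55 (SE 0.174, unadjusted p 0.0152 by edgeR) and -0.57 (SE 0.24, unadjusted p 0.0475), neither past the adjusted threshold. They were the 2 of these 54 genes with an unadjusted p under 0.05, against 3.44% of all genes. Without overlap, Csad also lay below the controls and Gcdh above them (3.69% of all genes lay above).

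Of 11 other tested genes of nitrogen disposal and amino acid transport 9 were lower and 2 higher, with 0 called, led by the aromatic amino acid carrier Slc16a10 (-0.63, SE 0.35) and the transporter Slc43a1 (0.68, SE 0.489). Fasting regulators were lower in 17 of 22, with 0 called, led by Cebpd (-0.86, SE 0.533) and Trib1 (-0.32, SE 0.206). Feeding-induced genes were higher in 7 of 11, with 0 called, led by the desaturase Scd1 (0.77, SE 0.313) and the carboxylase Acaca (0.49, SE 0.272). Clock genes were lower in 9 of 16, with 0 called, led by Nr1d1 (0.68, SE 0.22) and Per2 (-0.48, SE 0.236). The mean deviation of clock genes was -0.07, 0.04 and 0.08 in knockouts and 0.14, 0.13 and -0.33 in controls. Other genes of the members' own pathways did not all follow the library pair. Control 1 and knockout 2 were the 2 lowest libraries in 17.7% of all genes tested. Among genes with a mean of at least 50 CPM that share was 24.6%. For other amino acid catabolism genes the mean deviation was 0.0038, -0.25 and 0.12 in knockouts and -0.13, 0.14 and 0.11 in controls, and the pair was lowest in 21 of 54. Other gluconeogenesis and triose genes had their 2 highest averages in that pair, at -0.07, 0.08 and -0.01 in knockouts and 0.15, -0.03 and -0.12 in controls. The pair was lowest in 5 and highest in 7 of those 20 genes, and lowest in 2 and highest in 2 of the 11 genes of nitrogen disposal and transport.

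Hepatocyte nuclei were then split by lobular position. A score of periportal minus pericentral marker genes, which uses no member, was cut into 3 equal parts within each library, giving pericentral, middle and periportal ranges of 233 to 376 nuclei. These are ranges of a score, not cell types, and 117 to 369 nuclei per library lay within 0.1 SD of one of the 2 limits. The pericentral range was not equally pure: 55.9%, 63.1% and 69.2% of its nuclei were in clusters led by pericentral markers in knockouts 1, 2 and 3, against 66.0%, 100% and 84.0% in controls 1, 2 and 3. These clusters differed between libraries: one, led by Tbx3 and Lgr5, held 187 nuclei of knockout 2, 247 of control 1 and at most 4 of any other library, while the other held 9 and 3 nuclei of that pair and 144 to 293 of each other library. The shares thus compare different clusters between mice.

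Most members were higher in the periportal range. Of 32 members 25 were called between the periportal and the pericentral range of the same mice, against 26.8% of 11861 genes tested (edgeR, mouse as a block). The periportal range was higher for 22 members (14.4% of all genes) and the pericentral range for 3 (12.4%). These shares were not matched for level, and abundant genes are more readily called. A mean of at least 50 CPM in hepatocyte nuclei was reached by 30 of the 32 members and by 3822 of 13784 genes. The median log2 ratio, periportal over pericentral, was 0.49 for the members and 0.0022 for all genes. Members took 1.77% to 5.05% of UMIs in the middle and periportal ranges over the 6 libraries and 1.25% to 3.25% in the pericentral range.

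Amino acid enzymes had the steepest differences. Sds had 1156 ± 502 CPM in the periportal and 255 ± 157 CPM in the pericentral range (mean ± SD, n = 6), a log2 difference of 2.14 (SE 0.44, adjusted p 0.00374 by edgeR). By mouse its log2 ratio was 1.43, 1.64 and 1.71 in knockouts and 1.70, 5.73 and 2.37 in controls. Etnppl had 369 ± 229 CPM in the periportal and 84.0 ± 66.5 CPM in the pericentral range, a log2 difference of 2.06 (SE 0.434). Control 2 stood far above the other mice in both genes, and its pericentral range also had the largest share in pericentral clusters. The part of that share in these ratios was not tested. Hal (log2 difference 2.05, SE 0.416), Gls2 (1.87, SE 0.334) and Uroc1 (1.59, SE 0.277) came next, and the ratio was above 0 in all 6 mice for each.

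Urea cycle genes other than Nags followed. The log2 difference was 1.26 (SE 0.167) for Arg1, 1.21 (SE 0.139) for Asl, 1.06 (SE 0.169) for Otc, 0.86 (SE 0.0471) for Ass1 and 0.77 (SE 0.1) for Cps1. Ass1 was the most even among mice, at 0.81, 0.82 and 0.71 in knockouts and 0.96, 0.91 and 0.96 in controls. Cps1 had 7364, 2526 and 11394 CPM in the periportal and 4935, 1754 and 7071 CPM in the pericentral range of knockouts 1, 2 and 3. Controls 1, 2 and 3 had 1762, 11429 and 14760.0 CPM in the periportal and 1014, 4399 and 9004 CPM in the pericentral range. So the difference between mice exceeded that between ranges: the periportal range of control 1 or knockout 2 held less Cps1 than the pericentral range of the other 4 mice.

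Gluconeogenesis genes were all called higher in the periportal range, most of them by less. The log2 difference was 1.12 (SE 0.108) for Ppargc1a, 1.05 (SE 0.148) for Fbp1, 0.54 (SE 0.0918) for G6pc and 0.44 (SE 0.0591) for Slc37a4. Pck1, a textbook periportal gene, differed by 0.36 (SE 0.0836, adjusted p 0.0054) and Pcx by 0.29 (SE 0.043). For Pck1 the ratio by mouse was 0.16, 0.50 and 0.39 in knockouts and 0.84, 0.17 and 0.14 in controls, with control 1, its lowest library, the steepest. Among transporters and other enzymes Slc7a2 (0.82), Slc38a4 (0.67), Aass (0.58), Got1 (0.42), Tat (0.23) and Gpt (0.21) were also called. Gpt lost its call in 6 of 15 alternatives, Got1 in 4 and Sds in 1.

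Prodh, Hpd and Bckdhb ran the other way. Prodh had 26.2 ± 9.02 CPM in the periportal and 86.6 ± 26.9 CPM in the pericentral range, a log2 difference of -1.72 (SE 0.098). Its ratio by mouse was -2.10, -1.64 and -1.54 in knockouts and -1.35, -1.80 and -1.78 in controls. Hpd differed by -0.55 (SE 0.0543) and Bckdhb by -0.22 (SE 0.0456), each below 0 in all 6 mice. On the opposite strand Prodh overlaps Dgcr6, Hpd overlaps Psmd9 and Bckdhb overlaps Gm46124, as do Plbd2 and Gm15690 with Sds and Spryd4 with Gls2. Tyrosine degradation was thus split, with Tat higher in the periportal and Hpd in the pericentral range, and Hgd and Fah not called. Nor were Tdo2 (0.28, adjusted p 0.1), Slc25a15 (0.22, adjusted p 0.0512), Slc38a2, Gpt2 and Nags (-0.13, SE 0.121, adjusted p 0.496 by edgeR). Of 15 alternatives, Slc25a15 was called in 8, Tdo2 in 3 and Slc38a2 in 2.

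In this split the step lay between the pericentral and the middle range. From pericentral to middle the mean log2 change was 2.35 for Sds, 1.24 for Arg1, 0.82 for Cps1 and 0.41 for Pck1. Middle and periportal range then differed by 0.08, 0.04, -0.04 and -0.04 for the same genes, and by between -0.1 and 0.2 for every member.

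**Figure D4:**
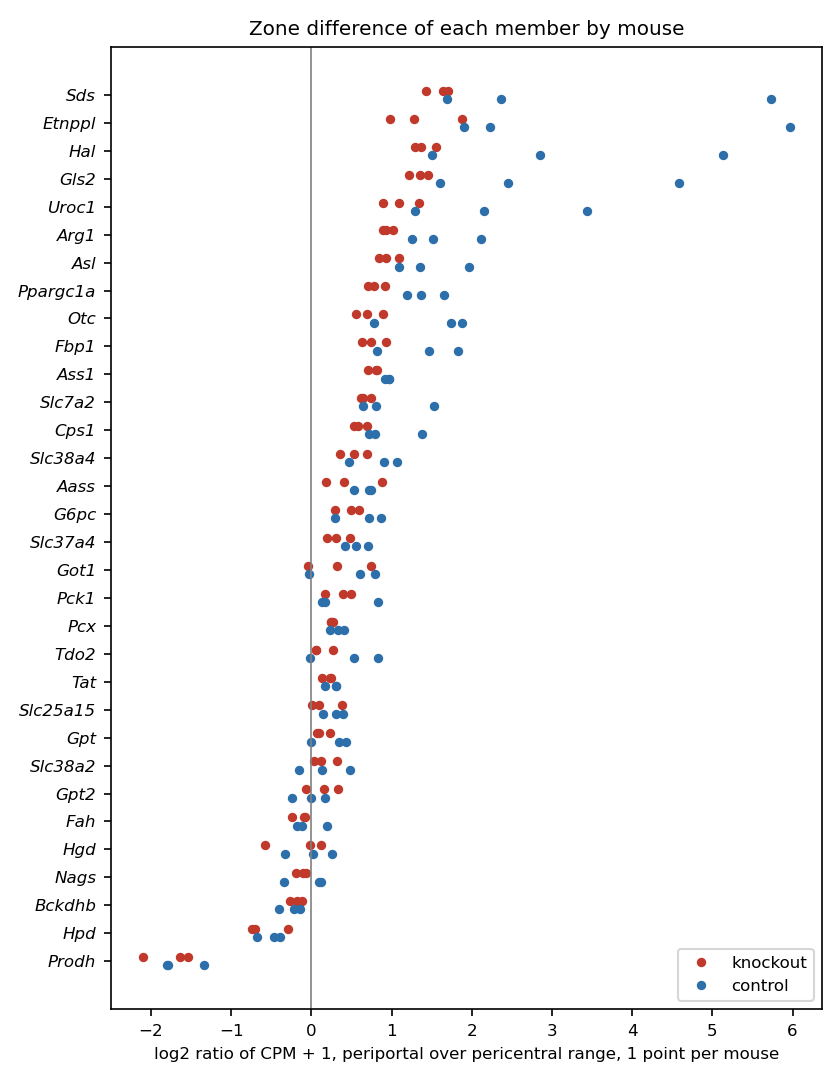
Log2 ratio of CPM + 1, periportal over pericentral range, for each of the 32 members with 1 point per mouse (knockouts above controls within a row), ordered by the fitted difference. Points lie right of 0 from Sds to Pcx except for 1 knockout and 1 control of Got1, left of 0 for Bckdhb, Hpd and Prodh, and the far right points are control 2.

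Within each range, too, no member was called between knockouts and controls, nor was any other gene (0 of 11626, 11414 and 11487 genes in the pericentral, middle and periportal range, 0% each). At an unadjusted p under 0.05 there was 1 member in each range, against 3.77%, 3.07% and 3.09% of genes. Fold changes were negative for 16, 27 and 28 of 32 members in the pericentral, middle and periportal range, against 49.9%, 50.2% and 49.9% of genes, with medians of 0.02, -0.26 and -0.28. Knockouts lay below controls without overlap for Pcx in all 3 ranges (log2 fold change -0.39, -0.45 and -0.46, SE 0.176, 0.202 and 0.195), as for 4.11%, 3.5% and 3.69% of genes. Aass did so in the middle range only (-1.24, SE 0.417, unadjusted p 0.0185), at 389, 748 and 1044 CPM in knockouts and 1768, 2272 and 1081 CPM in controls.

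In the pericentral range Sds was the 1 member with knockouts above controls (4.26% of genes). It had 280.1, 262 and 519 CPM in knockouts and 235, 34.4 and 197 CPM in controls, a log2 fold change of 1.18 (SE 0.63, unadjusted p 0.1). Control 2, with 34.4 CPM, was the library with the largest share of this range in pericentral clusters. The part of that share in the difference was not tested. With the range taken as the pericentral clusters, the median fold change of the members there was -0.30 in place of 0.02.

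A single member, Ppargc1a, was called when the genotype difference in the periportal range was tested against that in the pericentral range. The term was -0.60 (log2, SE 0.106, adjusted p 0.0128 by edgeR), and 19 of 12456 genes were called (0.153%). Its log2 ratio, periportal over pericentral, was 0.91, 0.71 and 0.78 in knockouts and 1.19, 1.65 and 1.37 in controls, so it was higher in the periportal range of every mouse and less so in all 3 knockouts. In CPM it had 263, 172 and 971 in the periportal range of knockouts and 344, 981 and 656 in that of controls. The pericentral range had 139, 105 and 564 CPM in knockouts and 150.0, 312 and 253 CPM in controls, and both ranges overlapped between groups.

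This call depended on how the pericentral range was drawn. With the range taken as the pericentral clusters the term for Ppargc1a was -0.18 (SE 0.127, adjusted p 0.92), and with a score of Cyp2f2 and Cyp2e1 alone it was -0.46 (SE 0.12, adjusted p 0.203). The share of hepatocyte nuclei in pericentral clusters was 19.0%, 21.4% and 24.0% in knockouts and 22.2%, 40.2% and 29.6% in controls. The adjusted p was also above 0.05 without control 2 (0.0835), control 3 (0.0795), knockout 2 (0.0505) or knockout 3 (0.145), and with nuclei thinned to 3000 UMIs (0.0688).

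The same sign was common among the members. The term was negative for 29 of 32, against 51.1% of all genes, with a median of -0.18 against -0.0064, and 7 members had an unadjusted p under 0.05, against 7.08% of genes. Log2 ratios of all 3 knockouts lay below those of all 3 controls for Etnppl, Gls2, Arg1, Ppargc1a, Ass1 and Cps1, which is 6 members, and for 5.83% of genes. Arg1 gave 0.89, 0.93 and 1.02 in knockouts and 1.26, 2.12 and 1.51 in controls (term -0.67, SE 0.215, adjusted p 0.491). Gls2 gave 1.22, 1.35 and 1.45 in knockouts and 1.60, 4.59 and 2.46 in controls (term -1.17, SE 0.572, adjusted p 0.762). With pericentral clusters as the range the median term was -0.04 and 0 members were called. The part of range purity in these differences was not tested, and the shares that measure it compare different clusters between mice.

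Co-variation from nucleus to nucleus was described within each library after thinning every nucleus to 3000 UMIs, which left 776, 908 and 691 nuclei of knockouts and 1113, 712 and 975 of controls. Spearman correlations are given for 29 members with a mean of at least 0.3 UMIs and for all 2198 genes past that level. Nuclei of 1 library share its depth and clusters, so no test was made. The median correlation was 0.05 over 406 member pairs and 0.00017 over 2414503 gene pairs. Correlations above 0.1 in all 6 libraries were found for 56 member pairs (13.79%) and 0.1% of all pairs. Apart from the floor of 0.3 UMIs, the gene pairs were not matched to the level of the members. Their means ran from 0.41 (Slc37a4) to 20.05 (Cps1) thinned UMIs per nucleus.

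Sds and Asl were the closest pair, with correlations of 0.32, 0.17 and 0.45 in knockouts and 0.2, 0.5 and 0.42 in controls (median 0.371). Next came Sds with Hal (0.37) and with Arg1 (0.351), Asl with Arg1 (0.343) and Cps1 with Slc7a2 (0.333). These pairs join enzymes of serine and histidine breakdown with the urea cycle and its amino acid supply. The members with most such partners were Cps1 (12), Sds, Arg1 and Gls2 (11 each), and Slc7a2, Ass1 and Hal (10 each).

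Gluconeogenesis genes were less connected: Fbp1 had 8 such partners, Ppargc1a 3, and Pck1, G6pc, Pcx and Slc37a4 had 0. The closest partner of Pck1 was Slc7a2 (median 0.164). Hpd ran against the others, most with Arg1, at -0.2, -0.14 and -0.19 in knockouts and -0.08, -0.09 and -0.23 in controls.

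These correlations lay along the zone score. The median correlation of a member with the score was 0.47 for Sds, 0.43 for Hal and 0.38 for Asl, and -0.21 for Hpd. Within the middle and within the periportal range 0 pairs were above 0.1 in all 6 libraries. Within the pericentral range, which mixes clusters, 68 were (16.75%, against 0.0596% of all pairs). Weak correlation remained within the other ranges. Member pairs above 0 in all 6 libraries made up 7.1% in the middle and 7.6% in the periportal range, against 1.64% and 1.67% of all pairs. Sds with Hal had a median of 0.537 within the pericentral, 0.02 within the middle and 0.02 within the periportal range.

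**Figure D5:**
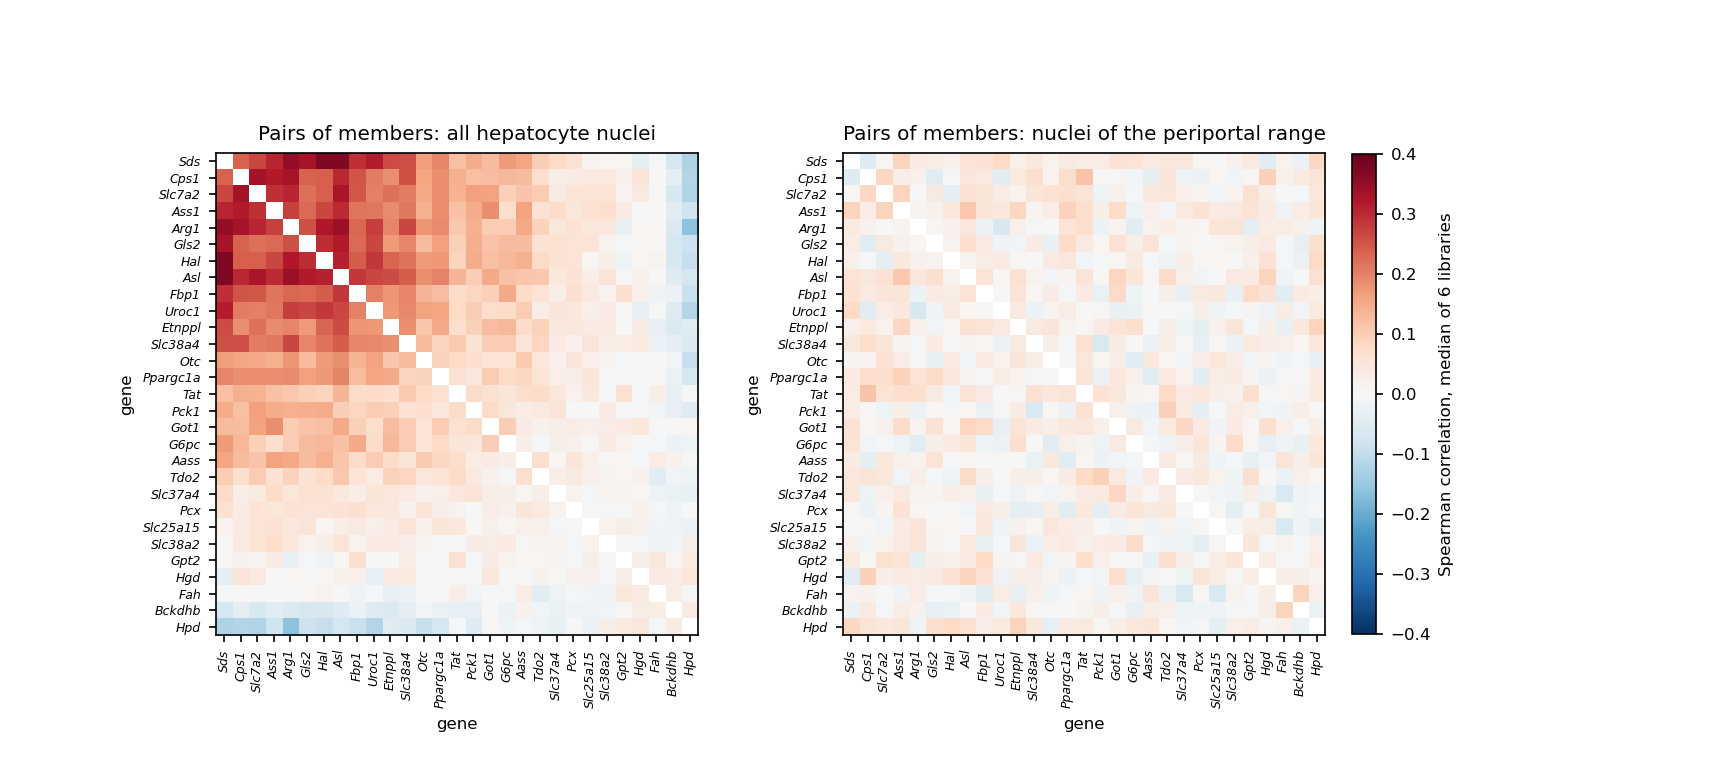
Spearman correlation over nuclei (median of 6 libraries) for each pair of 29 members, in all hepatocyte nuclei (left) and in nuclei of the periportal range (right). The red block of Sds, Cps1, Slc7a2, Ass1, Arg1, Gls2, Hal and Asl on the left, with Hpd and Bckdhb in blue, is nearly absent on the right.

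Outside hepatocytes most members were low. The ratio of mean CPM (unscaled totals) in hepatocyte over endothelial nuclei ran from 1.85 for Slc38a2 to 250.4 for Slc7a2, and it was 113 for Cps1. Cholangiocyte nuclei held Ppargc1a at 274 CPM and Gpt2 at 327 CPM, against 441 and 924 CPM in hepatocyte nuclei. Macrophage nuclei held Got1 at 99.8 CPM, against 333 CPM in hepatocyte nuclei. Free RNA gives nuclei of any class some hepatocyte transcripts, and its part in these levels was not tested.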

How the data were processed

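Nuclei of 6 livers were sequenced from 10x Genomics 3′ libraries (chemistry v.3.1), per the labels' protocols, 1 library per mouse. The matrices deposited by the authors hold raw UMI counts per gene and barcode. Cell Ranger 7.0.1 and mm10 are named in the submitters' processing notes, but 7.1.0 in the file headers. The sources used here do not say whether strand and introns were used.

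Groups were taken from the genotype labels, and replicate numbers follow accession order and only name a mouse. Nothing beyond the labels shows that the mice are independent, so p-values between knockouts and controls measure the spread between these libraries. The fits between zone ranges, and of the genotype difference by zone, took mouse as a block. Each range of a mouse entered as its own sum, and the level of each mouse was removed. P-values of these fits measure the spread left among those sums, not the spread in level between libraries. The members and all gene lists were chosen with earlier results of these data known.

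From these counts, nuclei with at least 500 genes, at least 1000 UMIs, under 5% mitochondrial UMIs and no scrublet call were kept (expected doublet rate 0.06, 2.22% to 3.77% called per library). Clustering in scanpy 1.11.5 and leidenalg 0.10.2 used 3000 variable genes without Plvap and the members, 30 principal components, 15 neighbours and resolution 1, with no batch integration. Clusters were named by class markers (score of at least 1, lead of 0.5, at least 3 markers detected), thresholds set after clusters were seen, and a cluster led by more markers of another class stayed unnamed, so names rest on a rebuilt annotation. Deposited counts were summed per mouse over hepatocyte nuclei, and over each zone range, and fitted with edgeR 4.0.16 (TMM, filterByExpr, robust quasi-likelihood, R 4.3.3), adjusted by Benjamini-Hochberg over all tested genes at 0.05. Standard errors come from the F statistic. On simulated counts the hepatocyte fit over 13817 genes recovered 57.4% of changes of 1 and 100% of changes of 2 on the log2 scale, and the zone fit over 11862 genes recovered 96.1% and 100%. The simulation gave every gene the same spread setting. Members spread more than most genes (median SD of log2(CPM + 1) over the 6 libraries 0.751 against 0.256), so these shares do not carry over to them. Alternatives were other scalings, no low-count filter, DESeq2 1.42.0, thinning, doublets kept, members kept for clustering, other zone definitions and each library left out.

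Values per library are given for members called in any fit, members whose groups did not overlap, the 6 with the smallest p, the 6 with the largest spread and the 4 with the largest zone difference in each direction, the others by range. Of each further list the 2 genes with the smallest p are named. Gene overlaps come from GENCODE M21.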

Additional observations from a re-analysis of the deposited data

Results flagged for a closer look

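Ppargc1a is given again because its genotype difference itself differed between zone ranges. The periportal difference minus the pericentral difference was -0.605 (log2, knockout over control, adjusted p 0.0128 by edgeR), with log2 ratios of periportal over pericentral range of 0.91, 0.71 and 0.78 in knockouts and 1.19, 1.65 and 1.37 in controls. All 6 ratios were positive. The share of nuclei of the pericentral range that lay in pericentral clusters was 55.9%, 63.1% and 69.2% in knockouts and 66.0%, 100% and 84.0% in controls, and with those clusters as the range the difference was -0.18 (adjusted p 0.92).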

How the results depend on the processing

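Members called between knockouts and controls in hepatocyte nuclei, and in each zone range, numbered 0 under every alternative run, and the 25 called between zone ranges numbered 23 to 28. The count of members whose genotype difference varied with zone moved from 1 to 3 without control 1 and knockout 2 together (Fbp1, Otc and Ppargc1a), 3 with ranges cut over all libraries (Arg1, Asl and Ppargc1a), 2 with no low-count filter (Asl and Ppargc1a), and 0 with nuclei thinned to 3000 UMIs, with pericentral clusters as the range or with a score of Cyp2f2 and Cyp2e1 alone. Leaving out 1 library gave 0 to 6, the 6 without control 1. Over all genes that test called 19, against 70, 33, 129, 10, 9 and 11 in the same order, and 1 to 116 with 1 library left out; the test between zone ranges called 1817 genes with thinned nuclei, against 3179. Member pairs correlated above 0.1 in all 6 libraries numbered 56, 96 at full depth, 60 by Pearson's correlation of log counts, 0 within the middle range and 0 within the periportal range. The cause of these changes was not tested. No result changed direction past a threshold. No paired analysis was possible because the labels carry no replicate numbers that pair knockout with control mice; zone ranges were compared within mice. With 3 mice per group and this spread, changes of 1 on the log2 scale are often missed, so a member not called is not shown to be the same in both groups. Nags rested on 68 to 362 UMIs per library.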
